A study of Homo sapiens with 24 samples.

Results

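The genes described here are 45 genes of DNA replication and nucleotide supply, chosen by symbol, of 21831 genes in the tables. They comprise 7 genes of origin licensing, 12 of the replicative helicase, 17 of the polymerases, sliding clamp and lagging strand, 4 of nucleotide supply, 2 of chromatin assembly and 3 E2F factors. Total RNA was sequenced from HBL-1, an established human cell line from a diffuse large B-cell lymphoma of the activated B-cell-like subtype. The cells received 20 µM dimethyl fumarate (DMF) in DMSO or DMSO alone (control). DMF is a fumaric acid ester that reacts with cysteine thiols. Cells were taken after 6, 12, 24 and 48 h in each arm, with 3 libraries per arm and time, so that the 8 groups hold 24 libraries. Every group shares the cell line, the culture medium with fetal calf serum, penicillin, streptomycin and Plasmocin, and the DMSO, and there was no group without DMSO. The labels number the 3 libraries of a group as replicates without saying whether they came from separate cultures, so p-values measure only the spread between these libraries, which may be technical.

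Cells license replication origins in G1, when the origin recognition complex together with CDC6 and CDT1 loads the ring of MCM proteins onto DNA, and geminin blocks CDT1 once S phase has begun. CDC45 and the GINS complex then turn the loaded ring into an active helicase, behind which polymerases, held on by the PCNA clamp, copy the strands. E2F transcription factors switch on many of these genes and the enzymes of deoxynucleotide synthesis as cells enter S phase, and proliferating lymphoma lines express them at high levels. In bulk RNA, fewer cells in S phase and less of these transcripts per cell cannot be told apart.

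The libraries held 2870751 to 40906596 estimated counts. The lowest was the DMF 48 h replicate 1 library, and the next lowest held 23097873. Both replicate 3 libraries of 12 h stood apart: the mean effective length of their counted transcripts was 2121 bases in the DMF library and 1902 bases in the control library, against 2850 to 3157 bases in the other 22. Ribosomal protein transcripts took 19.08% and 24.23% of their counts, against 8.01% to 12.84%. The values below rest on the other 22 libraries, so that at 12 h the comparison is 2 against 2 libraries. Values from all 24 are given beside them only where stated. Statements on overlap between the arms are about the 22 libraries. In the replicate 3 pair of 12 h, 32 members were lower in the DMF library than in the control library and 13 were higher. That pair is 1 library per arm, and the share of all genes that were lower in it was not computed. The common dispersion was 0.00212 with 22 libraries and 0.0521 with all 24, and fewer genes were called at every time with all 24. All 7 B cell markers were found in every library (CD79A at 1353.31 TPM or more), and the 5 T cell markers summed to 0.72 TPM or less in a library, with CD3G and CD2 listed at 0 in all 24. Of the germinal centre markers, MME was listed at 0 in all 24, BCL6 lay between 4.26 and 59.69 TPM and LMO2 between 0.23 and 1.46 TPM.

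Promoters of 40 members were found in the RefSeq table (GRCh38.p14), and the 250 bases before the annotated start were searched on both strands for the E2F motif, as TTTCCCGC, TTTGGCGC or TTTCGCGC, and for the CCAAT box. An E2F motif occurred in 15 of the 40 promoters, or 37.5%, and in 2.4% of all 27305 promoters. A CCAAT box occurred in 23 of the 40, or 57.5%, and in 33.0% of all promoters. The windows below are those of the member with the smallest p at 24 h in each role, so that they can be set beside its values (for the E2F factors, the first with an entry). Capitals mark the motifs, and on the minus strand a CCAAT box reads ATTGG. ORC1 holds a CCAAT box, POLA1 an E2F motif and a CCAAT box, TYMS an E2F motif, and E2F1 an E2F motif and 3 CCAAT boxes. GINS3 and CHAF1B hold no such letters in this window. Starts in RefSeq differ from those of GENCODE v29, the source of the gene coordinates below. By GENCODE, the whole GINS3 window and parts of the ORC1, TYMS, CHAF1B and E2F1 windows lie inside the gene. These parts include the matches in ORC1 and TYMS and most of the E2F motif in E2F1. A match describes the sequence and is not evidence of a bound site.
ORC1 (chr1:52404424-52404673, - strand): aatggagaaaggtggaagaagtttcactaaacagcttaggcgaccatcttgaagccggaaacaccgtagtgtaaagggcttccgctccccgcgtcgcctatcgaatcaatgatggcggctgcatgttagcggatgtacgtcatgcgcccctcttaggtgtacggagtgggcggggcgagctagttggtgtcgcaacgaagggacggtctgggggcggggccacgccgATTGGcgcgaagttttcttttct
GINS3 (chr16:58392221-58392470, + strand): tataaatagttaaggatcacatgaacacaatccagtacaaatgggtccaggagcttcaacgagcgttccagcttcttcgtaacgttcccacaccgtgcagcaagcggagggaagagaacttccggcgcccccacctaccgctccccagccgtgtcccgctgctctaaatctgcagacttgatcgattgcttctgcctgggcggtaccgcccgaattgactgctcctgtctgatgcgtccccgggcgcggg
POLA1 (chrX:24693668-24693917, + strand): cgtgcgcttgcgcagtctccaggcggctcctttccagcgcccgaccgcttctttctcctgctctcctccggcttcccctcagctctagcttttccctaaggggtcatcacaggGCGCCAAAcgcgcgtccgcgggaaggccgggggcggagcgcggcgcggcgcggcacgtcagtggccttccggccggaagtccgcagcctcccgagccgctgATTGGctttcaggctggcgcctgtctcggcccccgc
TYMS (chr18:657403-657652, + strand): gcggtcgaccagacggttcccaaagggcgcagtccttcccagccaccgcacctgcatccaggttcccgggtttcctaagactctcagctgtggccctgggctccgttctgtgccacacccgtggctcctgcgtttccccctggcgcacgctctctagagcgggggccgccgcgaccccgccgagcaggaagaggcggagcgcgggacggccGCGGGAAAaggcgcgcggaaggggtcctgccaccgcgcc
CHAF1B (chr21:36385142-36385391, + strand): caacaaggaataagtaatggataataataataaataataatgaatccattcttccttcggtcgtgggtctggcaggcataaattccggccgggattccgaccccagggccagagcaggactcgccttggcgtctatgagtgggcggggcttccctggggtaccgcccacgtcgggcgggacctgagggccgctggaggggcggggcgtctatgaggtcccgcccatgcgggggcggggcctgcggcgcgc
E2F1 (chr20:33686386-33686635, - strand): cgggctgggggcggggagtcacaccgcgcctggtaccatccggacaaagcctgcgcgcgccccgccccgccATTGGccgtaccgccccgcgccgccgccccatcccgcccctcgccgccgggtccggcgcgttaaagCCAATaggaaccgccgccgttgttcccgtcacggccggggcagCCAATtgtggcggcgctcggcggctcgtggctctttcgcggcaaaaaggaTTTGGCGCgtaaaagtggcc

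Before any effect of DMF, the members spanned a wide range of levels. In control cells at 6 h the highest was PCNA, the sliding clamp, at 618.88 ± 13.7 TPM (SD, n = 3), and the lowest was E2F2 at 13.53 ± 0.33 TPM. TPM is per length, so genes can be compared on this scale. The 6 subunits of the MCM ring, which are present in equal number in the ring, did not have equal transcript levels. MCM3, MCM5 and MCM7 stood at 380.34 ± 2.51, 374.35 ± 5.55 and 342.88 ± 10.82 TPM, MCM2 and MCM4 at 192.99 ± 2.32 and 190.51 ± 2.04 TPM, and MCM6 at 89.43 ± 1.66 TPM. The values of MCM3 and MCM5, and those of MCM2 and MCM4, lay close together, and their order was not tested. Within the catalytic polymerases, POLD1 of the delta polymerase was at 123.89 ± 2.29 TPM, and POLA1 and POLE of the alpha and epsilon polymerases were at 18.8 ± 1.24 and 14.74 ± 0.39 TPM. All 45 members passed the filter on low counts.

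Between 32 and 36 of the 45 members were called lower in DMF-treated cells at each time, and 21 at all 4 times, by modest factors; with all 24 libraries, 8 to 17 were called lower at a time. Summed over the 45 genes, they took 0.520 to 0.529% of the counts in DMF libraries at 6 h, against 0.644 to 0.651% in control libraries. At 12 h the sums were 0.566 to 0.570% in DMF libraries and 0.762 to 0.775% in control libraries. At 24 h they were 0.632 to 0.652% in DMF libraries and 0.741 to 0.748% in control libraries, and at 48 h 0.497 to 0.505% in DMF libraries and 0.588 to 0.610% in control libraries. The groups did not overlap at any time. In the 2 libraries set apart at 12 h the sums were 0.492% in the DMF library and 0.584% in the control library.

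**Figure D1:**
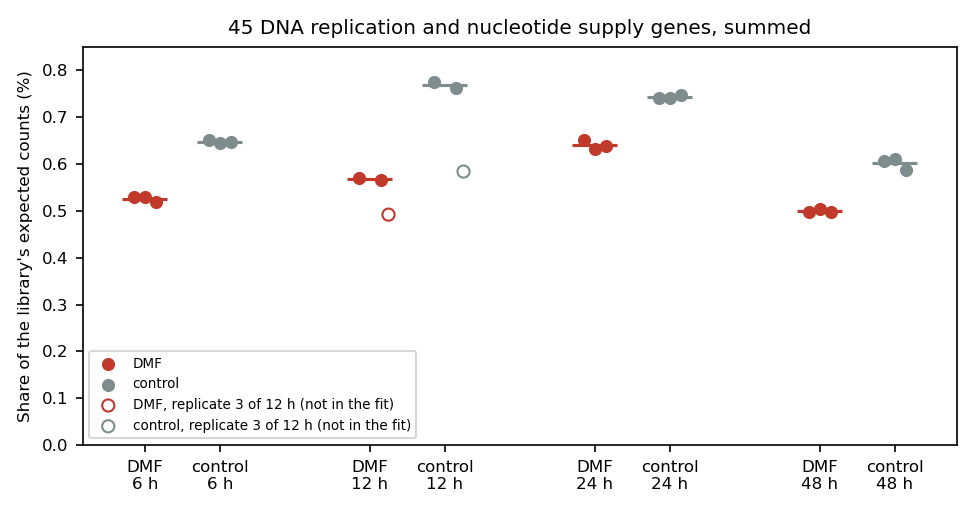
Share of each library's expected counts taken by the 45 genes (y axis, percent) by arm and time (x axis); points are libraries, lines are group means of the libraries in the fit, and open points are the replicate 3 libraries of 12 h. The DMF points lie below the control points of the same time, at 0.497 to 0.505% in DMF libraries against 0.588 to 0.610% in control libraries at 48 h.

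At 6 h, 34 of the 45 members were called lower and 1 higher in DMF cells (edgeR's quasi-likelihood test, Benjamini-Hochberg adjusted p under 0.05), where 23.4% of all 13606 genes tested were called lower and 23.8% higher. At 12 h, 36 were called lower and 1 higher, where 23.8% of all genes were called lower and 24.1% higher. At 24 h, 32 were called lower and 5 higher, where 27.9% of all genes were called lower and 29.5% higher. At 48 h, 34 were called lower and 3 higher, where 30.9% of all genes were called lower and 33.6% higher. The median log2 fold change of the members was -0.18, -0.35, -0.21 and -0.35 at 6, 12, 24 and 48 h, while the median of all genes lay between 0 and 0.02. These are small changes: none of the members was called lower by 1.5-fold or more at 6 h, 6 were at 12 h, 4 at 24 h and 4 at 48 h. The shares of all genes called lower by that factor were not computed. With all 24 libraries, 8, 17, 8 and 17 members were called lower and 1, 1, 0 and 0 higher, where 5.59, 9.95, 6.6 and 12.5% of all genes were called lower and 5.03, 7.37, 7.81 and 13.3% higher.

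The TPM scale, on which all genes shifted by -0.1, -0.07, -0.03 and 0.17 (median log2 difference at 6, 12, 24 and 48 h), gave a different split at 48 h. There, limma on log2(TPM + 1) called 10 members higher and 21 lower, against 3 and 34 on the count scale, where 48.8% of all genes were called higher and 17.5% lower on the TPM scale, while 35 of the 45 members lay below the median of all genes. At 6, 12 and 24 h it called 43, 40 and 33 members lower and 1 higher each, where 35.2, 27.7 and 28.4% of all genes were called lower and 10.2, 11.4 and 21.7% higher. Over all genes called, the share called higher on the TPM scale was 22.5, 29.2, 43.4 and 73.6% at 6, 12, 24 and 48 h, against 50.5, 50.3, 51.4 and 52% on the count scale. In libraries of 48 h, ribosomal protein transcripts took 8.01 to 8.23% of the counts in DMF libraries and 11.4 to 12.84% in control libraries. Their part in the TPM shift was not tested.

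**Figure D2:**
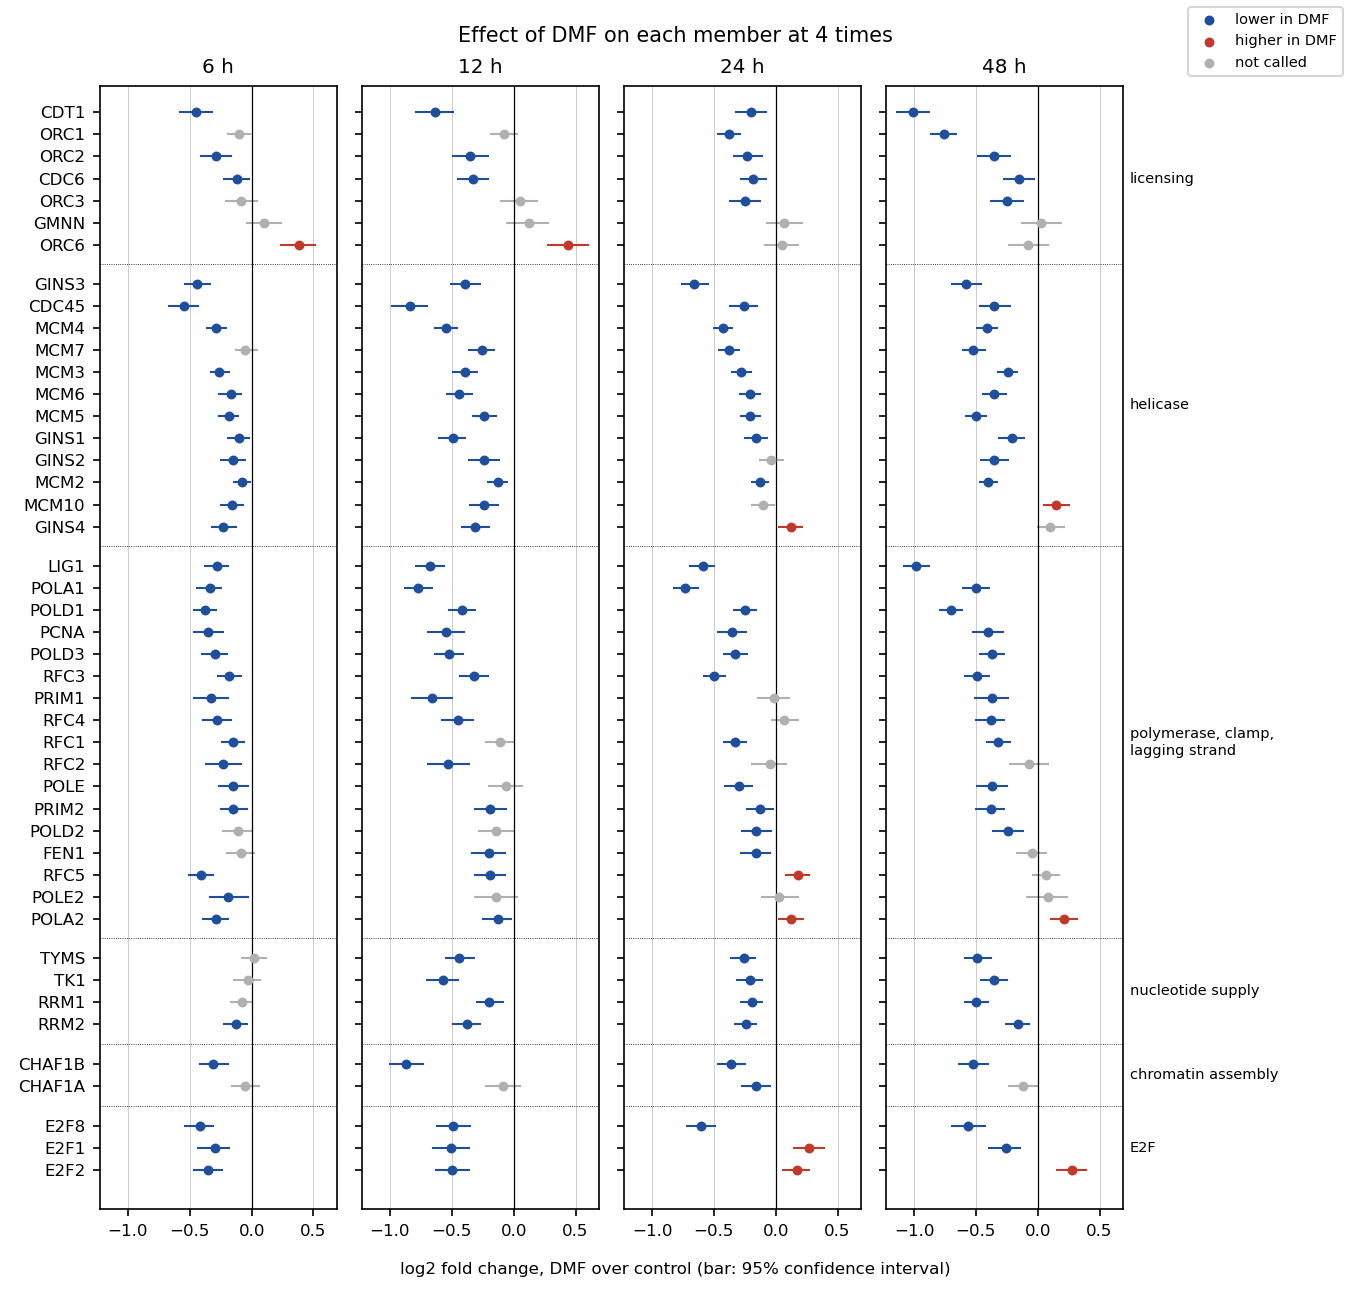
log2 fold change of each member in DMF over control cells (x axis) at 6, 12, 24 and 48 h, by role and gene (y axis); bars are 95% confidence intervals from 22 libraries, and colours mark members called lower, called higher or not called. At 48 h, 34 members lie on the lower side with a call and 3 on the higher side.

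Across times, 21 members were called lower at all 4 times, as were 6.76% of all genes tested. A total of 37 members were lower at some time and higher at none, and 6 (MCM10, GINS4, RFC5, POLA2, E2F1 and E2F2) were called in both directions. The shares of all genes with these patterns were not computed, so these counts have no background. ORC6 was called higher at 6 and 12 h and lower at none, and GMNN was called at no time.

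Among the licensing genes, CDT1, the MCM loader that is degraded in S phase, had the lowest mean fold change (chr16:88803213-88809258, + strand; GENCODE v29, GRCh38). Levels are given as CPM, counts scaled by TMM to a common library size. Those of the replicate 3 libraries of 12 h came from a separate scaling of all 24 libraries. CDT1 had 41.9, 37.9 and 37.3 CPM in DMF and 53.5, 55.1 and 51.6 CPM in control libraries at 6 h. CDT1 at 12 h stood at 43.7 and 42 CPM in DMF and 65.6 and 67.8 CPM in control libraries, with 77.3 CPM in the replicate 3 DMF library and 166 CPM in the replicate 3 control library. CDT1 in DMF lay below control at both times, without overlap. CDT1 at 24 h stood at 57.8, 58.5 and 57.2 CPM in DMF and 68.7, 66 and 65.1 CPM in control libraries. CDT1 at 48 h stood at 41.7, 52.8 and 52 CPM in DMF and 94.8, 111 and 103 CPM in control libraries. Every DMF library of the 22 lay below every control library of its time. For CDT1 the log2 fold change was -0.45 ± 0.06 (SE) at 6 h (adjusted p = 6.6e-07, and 0.41 with all 24 libraries), -0.64 ± 0.07 at 12 h (adjusted p = 3.7e-08, and 0.033 with all 24) and -0.20 ± 0.06 at 24 h (adjusted p = 0.0032, and 0.72 with all 24). At 48 h it was -1.01 ± 0.06 (adjusted p = 1.2e-13, and 0.0073 with all 24), a 2.02-fold lower level. In control cells CDT1 rose with time, to 103 ± 8.18 CPM at 48 h, against 53.4 ± 1.72 CPM at 6 h (log2 fold change 0.95 ± 0.06, adjusted p = 5.2e-14), and in DMF cells the same comparison gave 48.8 ± 6.17 CPM at 48 h, against 39 ± 2.47 CPM at 6 h (0.39 ± 0.06, adjusted p = 4.6e-06).

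ORC1, the largest subunit of the origin recognition complex, was called lower at the 2 later times on the count scale. ORC1 had 74.3, 77.8 and 76.8 CPM in DMF and 84.2, 79.3 and 81.6 CPM in control libraries at 6 h. At 12 h, ORC1 stood at 102 and 101 CPM in DMF and 111 and 103 CPM in control libraries. Neither time had overlapping arms for ORC1, and DMF lay below control, whereas the replicate 3 pair of 12 h had the other order. ORC1 at 24 h stood at 76.3, 74.3 and 75.5 CPM in DMF and 97.6, 96.6 and 100 CPM in control libraries. ORC1 at 48 h stood at 54.9, 55.7 and 53.7 CPM in DMF and 96.9, 93.6 and 88.1 CPM in control libraries. The groups lay close to each other, without overlap, at 6 and 12 h and were far apart at 48 h. The fold changes at 6 h (-0.10 ± 0.04, 95% interval -0.19 to -0.01, adjusted p = 0.054) and 12 h (-0.08 ± 0.05, adjusted p = 0.21) did not pass, and those at 24 h (-0.38 ± 0.04, adjusted p = 1.7e-08, and 0.056 with all 24) and 48 h (-0.76 ± 0.05, adjusted p = 1.2e-13, and 0.00022 with all 24) did. ORC1 was called lower at 6 and 12 h too on log2(TPM + 1) (-0.24, adjusted p = 0.00023, and -0.19, adjusted p = 0.0089). ORC6, the smallest subunit of the complex, went the other way at the early times. It had 62, 62.9 and 64.5 CPM in DMF and 50.2, 48.4 and 47 CPM in control libraries at 6 h. At 12 h, ORC6 stood at 68.6 and 70.8 CPM in DMF and 51.5 and 51.1 CPM in control libraries, with 68.5 CPM in the replicate 3 DMF library and 46.1 CPM in the replicate 3 control library. DMF values of ORC6 lay above control at each of these times. ORC6 at 24 h stood at 46.8, 39.6 and 42.3 CPM in DMF and 42.9, 40.4 and 41.5 CPM in control libraries. ORC6 at 48 h stood at 35.4, 30 and 32.4 CPM in DMF and 30.4, 38.1 and 31.7 CPM in control libraries, so that the groups did not overlap at 6 and 12 h and overlapped at 24 and 48 h. ORC6 was higher by 0.38 ± 0.06 at 6 h (adjusted p = 2e-05, and 0.0088 with all 24) and 0.44 ± 0.08 at 12 h (adjusted p = 2.9e-05, and 0.00094 with all 24). It did not pass at 24 h, nor on the count scale at 48 h, where the fold change was -0.08 ± 0.07, but on log2(TPM + 1) it was called higher at 48 h (0.24, adjusted p = 0.0013).

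The other licensing genes were less uniform. ORC2 was called lower at all 4 times, between -0.23 and -0.35 (adjusted p = 0.16 at 48 h on log2(TPM + 1)). CDC6, which recruits the MCM loader, was called lower at all 4 times with values between -0.12 and -0.33, but at 48 h its difference on log2(TPM + 1) was 0.06 (adjusted p = 0.32). ORC3 was called lower at 24 h (-0.25 ± 0.06) and 48 h (-0.25 ± 0.06) on the count scale, and on log2(TPM + 1) at 6 h (adjusted p = 0.012) and not at 48 h (adjusted p = 0.41). GMNN, which encodes geminin, the inhibitor of CDT1, had fold changes of 0.10 ± 0.06, 0.12 ± 0.08, 0.07 ± 0.06 and 0.03 ± 0.07 at 6, 12, 24 and 48 h, none called, with 95% intervals of -0.04 to 0.24 at 6 h and -0.13 to 0.19 at 48 h. GMNN was called higher at 48 h on log2(TPM + 1) (0.21, adjusted p = 0.006).

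In the helicase group, 11 of 12 members were called lower at 6 h, 12 at 12 h, 9 at 24 h and 10 at 48 h. At these times 23.4, 23.8, 27.9 and 30.9% of all genes were called lower. The median log2 fold changes of the group were -0.18, -0.35, -0.21 and -0.35. GINS3, a subunit of the complex that activates the MCM ring (chr16:58295080-58406144, + strand), gave the smallest p of the group. At 6 h GINS3 had 30.4, 31.1 and 30.8 CPM in DMF and 41.4, 42.4 and 41.7 CPM in control libraries. GINS3 at 12 h stood at 27.7 and 27.6 CPM in DMF and 37.2 and 35.3 CPM in control libraries, with 29 CPM in the replicate 3 DMF library and 39.1 CPM in the replicate 3 control library. Without overlap, DMF values of GINS3 lay below control at 6 and 12 h. GINS3 at 24 h stood at 25.3, 24.6 and 24.7 CPM in DMF and 39.2, 38.3 and 40 CPM in control libraries. GINS3 at 48 h stood at 21.6, 18.7 and 17.6 CPM in DMF and 28, 28.5 and 26.2 CPM in control libraries. No DMF library reached the level of a control library of its time. For GINS3 the log2 fold change was -0.44 ± 0.05 at 6 h, -0.39 ± 0.06 at 12 h, -0.66 ± 0.05 at 24 h and -0.58 ± 0.05 at 48 h, with adjusted p of 1.9e-08, 3.3e-06, 1.2e-11 and 9.5e-10, and it passed with all 24 libraries at every time (adjusted p = 0.0012 or less).

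GINS4, another subunit of the complex, changed direction. It had 46.3, 46.8 and 45.4 CPM in DMF and 53.8, 55.6 and 53 CPM in control libraries at 6 h. At 12 h, GINS4 stood at 55.2 and 56.7 CPM in DMF and 66.5 and 72.2 CPM in control libraries, with 31 CPM in the replicate 3 DMF library and 28.7 CPM in the replicate 3 control library. GINS4 in DMF lay below control at both times, without overlap, whereas the replicate 3 pair of 12 h had the other order. GINS4 at 24 h stood at 64.4, 67.2 and 67.5 CPM in DMF and 62.8, 60.1 and 60.1 CPM in control libraries. GINS4 at 48 h stood at 45.8, 47.7 and 45.8 CPM in DMF and 44.8, 44.2 and 41.2 CPM in control libraries. DMF libraries were below control libraries at 6 and 12 h, apart from the replicate 3 pair, and above them at 24 and 48 h. For GINS4 the log2 fold change was -0.23 ± 0.04 and -0.31 ± 0.05 at 6 and 12 h, and 0.12 ± 0.04 at 24 h (adjusted p = 0.017, 0.81 with all 24 libraries, and adjusted p = 0.25 on log2(TPM + 1)). At 48 h it was 0.10 ± 0.05 (adjusted p = 0.058), and 0.33 on log2(TPM + 1) (adjusted p = 9.2e-06). MCM10, which helps the helicase to start, had 97.8, 98.3 and 98.9 CPM in DMF and 112, 111 and 106 CPM in control libraries at 6 h, and 103 and 99.4 CPM in DMF and 117 and 122 CPM in control libraries at 12 h. Neither time had overlapping arms for MCM10, and DMF lay below control. MCM10 at 24 h stood at 90.4, 91.1 and 91 CPM in DMF and 96.7, 93.7 and 101 CPM in control libraries, and 58.9, 62.9 and 59.9 CPM in DMF and 58.6, 52.5 and 54.3 CPM in control libraries followed at 48 h. Its DMF values were lower at 6 and 12 h, and at 48 h they lay above those of controls. The fold change was -0.16 ± 0.04 at 6 h, -0.24 ± 0.05 at 12 h, -0.10 ± 0.04 at 24 h and 0.15 ± 0.05 at 48 h, where adjusted p = 0.0071 (0.65 with all 24 libraries). MCM10 was called lower at 24 h on log2(TPM + 1) (-0.15, adjusted p = 0.037).

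Transcripts of the MCM ring were lower, with values that differed between subunits. MCM3, MCM4, MCM5 and MCM6 were called lower at all 4 times, and MCM2 too, at between -0.08 ± 0.03 at 6 h and -0.40 ± 0.03 at 48 h, but at 48 h MCM3 did not pass on log2(TPM + 1) (-0.01, adjusted p = 0.7). MCM4 had 483 and 463 CPM in DMF and 701 and 685 CPM in control libraries at 12 h, with 303 CPM in the replicate 3 DMF library and 390 CPM in the replicate 3 control library. Its level at 24 h was 448, 437 and 429 CPM in DMF and 590, 576 and 600 CPM in control libraries. Its log2 fold change was -0.55 ± 0.04 at 12 h (adjusted p = 5.8e-11, and 0.033 with all 24) and -0.43 ± 0.03 at 24 h. MCM7 was not called at 6 h (-0.05 ± 0.04; -0.20 on log2(TPM + 1), adjusted p = 0.00029) and was lower at 12, 24 and 48 h, at -0.52 ± 0.04 by 48 h, but reads of its gene and of AP4M1 on the opposite strand cannot be told apart over 216 bases of exon, since the strand of counting is not stated. CDC45 was lower at every time, at 40.2 ± 0.319 CPM in DMF libraries, against 72.2 ± 5.71 CPM in control libraries at 12 h (SD, n = 2 each) with a log2 fold change of -0.84 ± 0.06 (adjusted p = 6.8e-11, and 4e-04 with all 24). Its fold changes at 6, 24 and 48 h were -0.55 ± 0.06, -0.26 ± 0.05 and -0.35 ± 0.06 (adjusted p = 0.067 at 48 h on log2(TPM + 1)). GINS1 was called lower at all 4 times, but its 48 h value of -0.21 ± 0.05 became 0.03 on log2(TPM + 1), and GINS2 was called lower at 6, 12 and 48 h.

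Of the 17 polymerase, clamp and lagging strand genes, 15 were called lower at 6 h, 13 at 12 h, 11 at 24 h and 12 at 48 h. The shares of all genes called lower were 23.4, 23.8, 27.9 and 30.9%. The median log2 fold changes of the group were -0.28, -0.32, -0.16 and -0.37. LIG1, the ligase that seals Okazaki fragments (chr19:48115445-48170603, - strand), had the largest effect of the group at 48 h. LIG1 had 74.2, 70.5 and 70.9 CPM in DMF and 87.6, 90.6 and 84.5 CPM in control libraries at 6 h. At 12 h, LIG1 stood at 56.7 and 56.4 CPM in DMF and 88.9 and 91.9 CPM in control libraries, with 71.4 CPM in the replicate 3 DMF library and 102 CPM in the replicate 3 control library. DMF values of LIG1 lay below control at each of these times. LIG1 at 24 h stood at 82.9, 78.2 and 79 CPM in DMF and 121, 124 and 118 CPM in control libraries. LIG1 at 48 h stood at 77.4, 77.8 and 78.3 CPM in DMF and 143, 162 and 155 CPM in control libraries. The DMF libraries of the 22 were below every control library of their time, and the control level was higher at 48 h than at the earlier times. For LIG1 the log2 fold change was -0.28 ± 0.04 at 6 h (adjusted p = 9.1e-06, and 0.068 with all 24), -0.68 ± 0.05 at 12 h (adjusted p = 1.8e-10, and 0.00015 with all 24), -0.59 ± 0.04 at 24 h (adjusted p = 1.9e-11, and 0.00024 with all 24) and -0.98 ± 0.05 at 48 h (adjusted p = 1.5e-15, and 3.9e-07 with all 24).

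POLA1, the catalytic subunit of the alpha polymerase (chrX:24693919-24996986, + strand), was among the most reduced members. POLA1 had 44 and 44.2 CPM in DMF and 74.3 and 76 CPM in control libraries at 12 h, with 19.8 CPM in the replicate 3 DMF library and 23.9 CPM in the replicate 3 control library. Its level at 24 h was 48.4, 49.8 and 49.4 CPM in DMF and 80.5, 81.6 and 82 CPM in control libraries. All of these pairs had the DMF library lower. For POLA1 the log2 fold changes were -0.34 ± 0.04, -0.77 ± 0.05, -0.73 ± 0.04 and -0.50 ± 0.05 at 6, 12, 24 and 48 h (adjusted p = 3e-13 at 24 h, and 0.11 with all 24). Its partner subunit POLA2 was lower at the early times and higher at the later times on the count scale. POLA2 had 52.9, 52.3 and 49.4 CPM in DMF and 62.5, 60.9 and 65.8 CPM in control libraries at 6 h. At 12 h, POLA2 stood at 76.6 and 75.8 CPM in DMF and 86 and 81.3 CPM in control libraries. Without overlap, DMF values of POLA2 lay below control at 6 and 12 h. POLA2 at 24 h stood at 89.7, 82.5 and 85.6 CPM in DMF and 77.3, 79.4 and 80.1 CPM in control libraries. POLA2 at 48 h stood at 65.8, 72.1 and 66.3 CPM in DMF and 58.6, 60.7 and 58.5 CPM in control libraries. All DMF libraries exceeded all control libraries at 24 and 48 h. The fold change was -0.29 ± 0.05 at 6 h, -0.13 ± 0.05 at 12 h, 0.12 ± 0.04 at 24 h (-0.03 on log2(TPM + 1), adjusted p = 0.74, and adjusted p = 0.078 without control 24 h replicate 1) and 0.21 ± 0.05 at 48 h (adjusted p = 0.00038, and 0.5 with all 24). RFC5, a small subunit of the clamp loader, also crossed over. It had 45, 44.2 and 43.5 CPM in DMF and 58.8, 58.4 and 58.4 CPM in control libraries at 6 h, and 63.9 and 59 CPM in DMF and 71.3 and 68.9 CPM in control libraries at 12 h. RFC5 in DMF lay below control at both times, without overlap, whereas the replicate 3 pair of 12 h had the other order. RFC5 at 24 h stood at 70.7, 64.3 and 70.3 CPM in DMF and 60.9, 59.2 and 61.6 CPM in control libraries, and 55.8, 56.9 and 54.9 CPM in DMF and 56, 53.7 and 50.5 CPM in control libraries followed at 48 h. The groups did not overlap at 6, 12 and 24 h and overlapped at 48 h. RFC5 was lower, with a log2 fold change of -0.41 ± 0.05 at 6 h (adjusted p = 7.7e-08, and 0.037 with all 24) and higher by 0.18 ± 0.04 at 24 h (adjusted p = 0.0016, 0.42 with all 24, and adjusted p = 0.13 on log2(TPM + 1)). On that scale RFC5 was called higher at 48 h (0.29, adjusted p = 5.8e-05).

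PCNA, the clamp, was lower at every time, and this passed with all 24 libraries too. It had 339 and 347 CPM in DMF and 518 and 484 CPM in control libraries at 12 h, and 215, 209 and 219 CPM in DMF and 298, 299 and 252 CPM in control libraries at 48 h, without overlap. For PCNA the log2 fold changes were -0.35 ± 0.05, -0.55 ± 0.07, -0.35 ± 0.05 and -0.40 ± 0.06 at 6, 12, 24 and 48 h (adjusted p = 0.047 or less with all 24). POLD1 and POLD3 of the delta polymerase were called lower at all 4 times, and POLD1 was -0.70 ± 0.04 at 48 h (adjusted p = 2.1e-13). PRIM2 and RFC3 were called lower at all 4 times, the primase subunit PRIM1 and the clamp loader subunit RFC4 at 6, 12 and 48 h, and RFC1 and POLE at 6, 24 and 48 h. POLE2 was called lower at 6 h only, POLD2 at 24 and 48 h, and RFC2 at 6 and 12 h. On log2(TPM + 1) the 48 h calls of POLD2, POLD3, PRIM2, RFC1 and POLE were lost (adjusted p = 0.46, 0.15, 0.12, 0.27 and 0.44). On that scale POLD2 was called lower at 6 and 12 h (-0.26 at both) and RFC1 at 12 h (-0.22), and POLE2 was called higher at 48 h (0.42), as was RFC2 (0.18, against -0.07 ± 0.07 on the count scale). FEN1, the flap nuclease, was called lower at 12 and 24 h, and at 48 h its value was -0.05 ± 0.06 on the count scale. FEN1 on log2(TPM + 1) was called lower at 6 h (-0.23) and higher at 48 h (0.18, adjusted p = 0.00054). PRIM1 and FEN1 overlap HSD17B6 and TMEM258 on the opposite strand, over 123 and 166 bases of exon. Since the strand of counting is not stated, reads there may not be told apart. FEN1 also overlaps FADS2 on the same strand, over 49 bases of exon.

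On the count scale, 1 of the 4 nucleotide supply genes was called lower at 6 h, and all 4 at 12, 24 and 48 h. Of all genes, 23.4, 23.8, 27.9 and 30.9% were called lower at the 4 times. On log2(TPM + 1) all 4 were called lower at 6 h too, TYMS at -0.12, TK1 at -0.17, RRM1 at -0.22 and RRM2 at -0.26 (adjusted p = 0.0024, 0.00013, 0.0014 and 8.9e-05). TYMS, thymidylate synthase (chr18:657604-673578, + strand), had 79.3, 80.3 and 83.2 CPM in DMF and 78.8, 83.4 and 77.3 CPM in control libraries at 6 h. At 12 h, TYMS stood at 75.8 and 77.6 CPM in DMF and 103 and 105 CPM in control libraries, with 81.5 CPM in the replicate 3 DMF library and 103 CPM in the replicate 3 control library. The arms of TYMS overlapped at 6 h, while at 12 h DMF values lay below control. TYMS at 24 h stood at 97.1, 91.9 and 91.3 CPM in DMF and 112, 111 and 113 CPM in control libraries. TYMS at 48 h stood at 70.9, 74.5 and 74.6 CPM in DMF and 102, 112 and 97.6 CPM in control libraries. The groups overlapped at 6 h and at no later time. For TYMS the log2 fold change was 0.02 ± 0.05 at 6 h, -0.44 ± 0.06 at 12 h (adjusted p = 3.8e-07, and 0.00047 with all 24), -0.26 ± 0.04 at 24 h and -0.49 ± 0.05 at 48 h (adjusted p = 2.1e-09, and 2.7e-05 with all 24). TYMS overlaps ENOSF1 on the opposite strand over 719 bases of exon, so its counts are uncertain.

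RRM1, the large subunit of ribonucleotide reductase, had 166, 162 and 161 CPM in DMF and 171, 174 and 173 CPM in control libraries at 6 h. At 12 h, RRM1 stood at 187 and 184 CPM in DMF and 215 and 212 CPM in control libraries, with 129 CPM in the replicate 3 DMF library and 111 CPM in the replicate 3 control library. Neither time had overlapping arms for RRM1, and DMF lay below control, whereas the replicate 3 pair of 12 h had the other order. RRM1 at 24 h stood at 175, 169 and 172 CPM in DMF and 200, 193 and 198 CPM in control libraries. RRM1 at 48 h stood at 111, 131 and 127 CPM in DMF and 183, 179 and 169 CPM in control libraries. DMF libraries were lower throughout, except in the replicate 3 pair of 12 h, and most clearly so at 48 h. RRM1 changed by -0.08 ± 0.04, -0.20 ± 0.05, -0.19 ± 0.04 and -0.50 ± 0.04 at 6, 12, 24 and 48 h (adjusted p at 6 h = 0.1, and at 48 h = 2.2e-10, or 0.024 with all 24). RRM2, the small subunit, had 277, 269 and 277 CPM in DMF and 304, 289 and 306 CPM in control libraries at 6 h. At 12 h, RRM2 stood at 302 and 289 CPM in DMF and 386 and 381 CPM in control libraries, with 235 CPM in the replicate 3 DMF library and 273 CPM in the replicate 3 control library. DMF values of RRM2 lay below control at each of these times. RRM2 at 24 h stood at 283, 261 and 264 CPM in DMF and 320, 314 and 322 CPM in control libraries. RRM2 at 48 h stood at 161, 182 and 167 CPM in DMF and 196, 197 and 184 CPM in control libraries. The groups did not overlap at any of the 4 times. For RRM2 the log2 fold changes were -0.13 ± 0.04, -0.38 ± 0.05, -0.24 ± 0.04 and -0.16 ± 0.04, all called, but the 48 h value was 0.06 on log2(TPM + 1). TK1, thymidine kinase, had 99.5 and 98 CPM in DMF and 145 and 149 CPM in control libraries at 12 h. It was called lower at 12, 24 and 48 h (-0.57 ± 0.06, -0.21 ± 0.05 and -0.35 ± 0.05), and not at any time with all 24 libraries (adjusted p = 0.08 at 12 h).

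**Figure D3:**
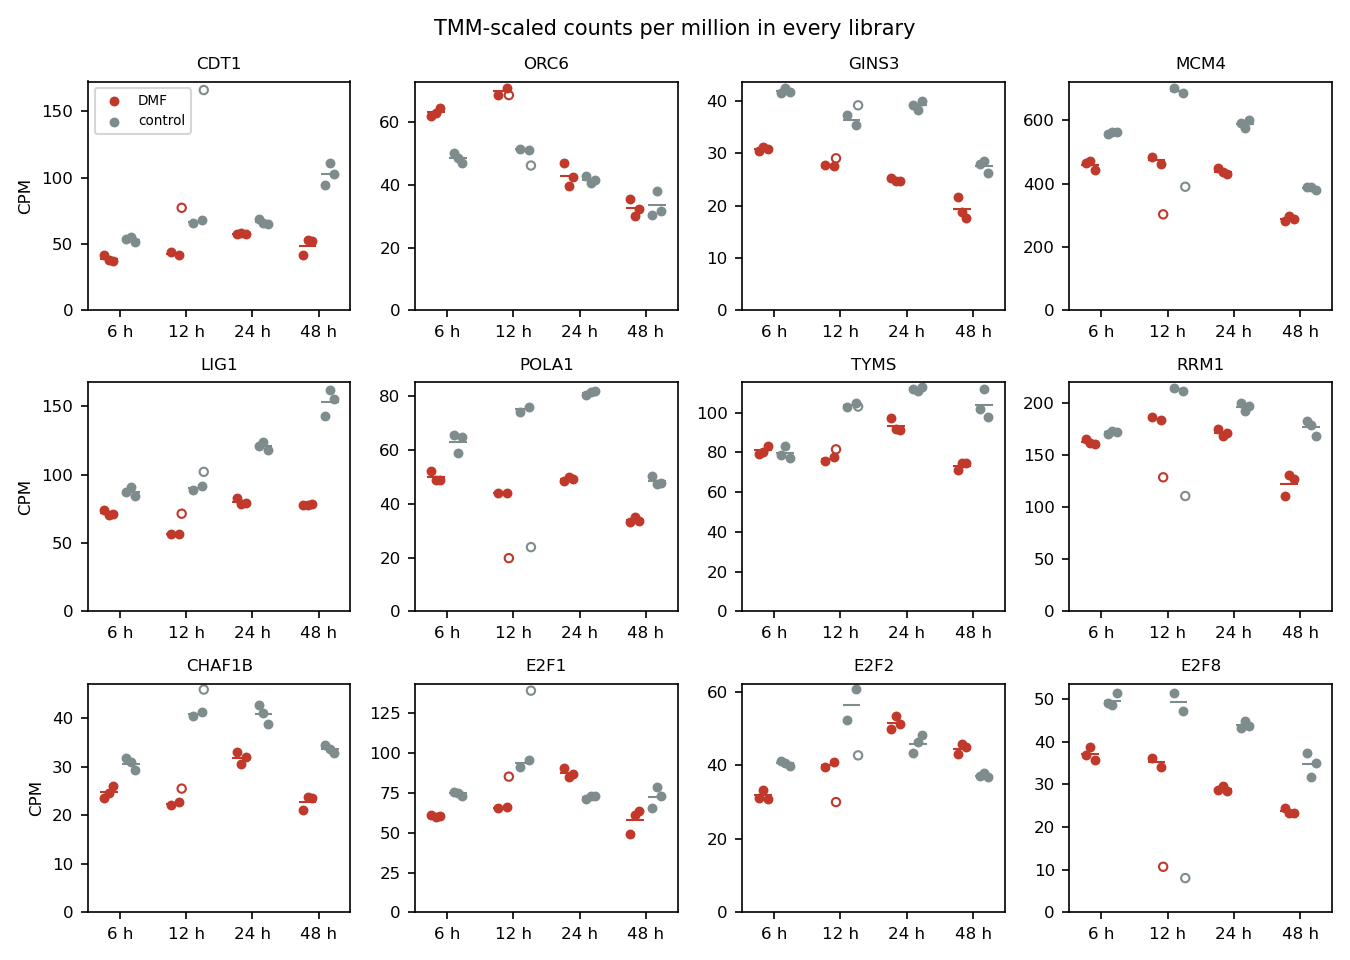
CPM after TMM scaling (y axis) of 12 members in every library by time (x axis), with DMF libraries in red and control libraries in grey at the right of them. Lines are group means. Open circles are the replicate 3 libraries of 12 h, which were scaled with all 24 libraries and are left out of the means. CDT1 at 48 h lay at 41.7 to 52.8 CPM in DMF libraries and 94.8 to 111 CPM in control libraries, while E2F2 was below control at 6 and 12 h and above it at 24 and 48 h.

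CHAF1B, a subunit of the chromatin assembly factor that deposits histones behind the fork (chr21:36385378-36419015, + strand), was lower at every time. It had 23.5, 24.5 and 26.1 CPM in DMF and 31.7, 31 and 29.3 CPM in control libraries at 6 h. At 12 h, CHAF1B stood at 22.1 and 22.7 CPM in DMF and 40.5 and 41.2 CPM in control libraries, with 25.5 CPM in the replicate 3 DMF library and 45.9 CPM in the replicate 3 control library. Without overlap, DMF values of CHAF1B lay below control at 6 and 12 h. CHAF1B at 24 h stood at 33.1, 30.6 and 32 CPM in DMF and 42.7, 41.1 and 38.8 CPM in control libraries. CHAF1B at 48 h stood at 21, 23.8 and 23.6 CPM in DMF and 34.4, 33.7 and 32.8 CPM in control libraries. The groups never overlapped. Its log2 fold change was -0.31 ± 0.05, -0.87 ± 0.06, -0.36 ± 0.05 and -0.52 ± 0.06 at 6, 12, 24 and 48 h, and it passed with all 24 libraries at each time (adjusted p = 1.2e-06 at 12 h). CHAF1A, its partner subunit, had 112, 118 and 113 CPM in DMF and 118, 120 and 117 CPM in control libraries at 6 h. At 12 h, CHAF1A stood at 114 and 128 CPM in DMF and 125 and 132 CPM in control libraries. The arms overlapped for CHAF1A at both times. CHAF1A at 24 h stood at 105, 99.8 and 98.6 CPM in DMF and 115, 112 and 112 CPM in control libraries. CHAF1A at 48 h stood at 75.6, 84.7 and 77.9 CPM in DMF and 81.3, 94 and 86.3 CPM in control libraries. The groups overlapped at 6, 12 and 48 h, and on the count scale CHAF1A was called at 24 h alone (-0.16 ± 0.05, adjusted p = 0.0081, and 0.22 with all 24). It was called lower at 6 and 12 h as well on log2(TPM + 1) (-0.20 at both, adjusted p = 0.0018 and 0.0085).

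With 22 libraries on the count scale, the repressor E2F8 was lower at all 4 times, and the activators E2F1 and E2F2 were lower at 6 and 12 h. Both activators were called higher at 24 h, and at 48 h E2F1 was lower and E2F2 higher. E2F8, an E2F repressor, had 36.8, 38.8 and 35.7 CPM in DMF and 49, 48.6 and 51.4 CPM in control libraries at 6 h. At 12 h, E2F8 stood at 36.3 and 34 CPM in DMF and 51.5 and 47.2 CPM in control libraries, with 10.7 CPM in the replicate 3 DMF library and 8.05 CPM in the replicate 3 control library. E2F8 in DMF lay below control at both times, without overlap, whereas the replicate 3 pair of 12 h had the other order. E2F8 at 24 h stood at 28.7, 29.7 and 28.4 CPM in DMF and 43.2, 44.8 and 43.7 CPM in control libraries. E2F8 at 48 h stood at 24.5, 23.4 and 23.4 CPM in DMF and 37.3, 31.8 and 35 CPM in control libraries. The replicate 3 pair was far below the other libraries of 12 h and in the other order. For E2F8 the log2 fold changes were -0.42 ± 0.05, -0.49 ± 0.06, -0.60 ± 0.05 and -0.56 ± 0.06, with adjusted p of 5.2e-10 at 24 h, and 0.43 with all 24 libraries, where none of the 4 times passed.

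E2F1, an activator, had 60.8, 59.9 and 60.6 CPM in DMF and 75.7, 75.1 and 73.2 CPM in control libraries at 6 h. At 12 h, E2F1 stood at 65.7 and 65.8 CPM in DMF and 91.2 and 95.5 CPM in control libraries, with 85.1 CPM in the replicate 3 DMF library and 139 CPM in the replicate 3 control library. Neither time had overlapping arms for E2F1, and DMF lay below control. E2F1 at 24 h stood at 90.3, 84.9 and 86.9 CPM in DMF and 71.4, 73 and 73 CPM in control libraries. E2F1 at 48 h stood at 49.2, 60.8 and 63.3 CPM in DMF and 65.3, 78.8 and 72.9 CPM in control libraries. DMF libraries were lower at 6, 12 and 48 h and higher at 24 h, with no overlap. For E2F1 the log2 fold change was -0.30 ± 0.06 at 6 h, -0.51 ± 0.07 at 12 h, 0.27 ± 0.05 at 24 h (adjusted p = 0.00016, and 0.28 with all 24) and -0.26 ± 0.06 at 48 h (adjusted p = 0.00038, and adjusted p = 0.21 on log2(TPM + 1)). E2F2, also an activator, had 31.2, 33.3 and 30.9 CPM in DMF and 41.3, 40.5 and 39.9 CPM in control libraries at 6 h. At 12 h, E2F2 stood at 39.4 and 40.9 CPM in DMF and 52.3 and 60.7 CPM in control libraries, with 30 CPM in the replicate 3 DMF library and 42.7 CPM in the replicate 3 control library. DMF values of E2F2 lay below control at each of these times. E2F2 at 24 h stood at 49.9, 53.5 and 51.1 CPM in DMF and 43.4, 46.2 and 48.1 CPM in control libraries. E2F2 at 48 h stood at 43, 45.7 and 44.9 CPM in DMF and 37, 37.8 and 36.8 CPM in control libraries. No control library lay among the DMF libraries of its time, and their order turned between 12 and 24 h. For E2F2 the log2 fold change was -0.35 ± 0.05 at 6 h, -0.50 ± 0.06 at 12 h (adjusted p = 3.1e-07, and 0.0022 with all 24), 0.17 ± 0.05 at 24 h (adjusted p = 0.0067, adjusted p = 0.38 with all 24 and 0.057 without control 24 h replicate 1, and 0.05 with adjusted p = 0.6 on log2(TPM + 1)) and 0.28 ± 0.06 at 48 h (adjusted p = 0.00011, and 0.084 with all 24).

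The effect of DMF differed between the 4 times for 35 of the 45 members (77.8%) in a joint test of the interaction, where 69.1% of all genes passed. With all 24 libraries 8 members (17.8%) passed, where 15% of all genes did, so that the members' shares lay near those of all genes. From 6 to 24 h the effect became higher for 9 members and lower for 11, where 22.5% and 21.9% of all genes did so, and from 24 to 48 h it became higher for 2 and lower for 14, where 21.2% and 20% of all genes did so. The smallest p-values of the joint test were those of ORC1, E2F2 and LIG1. The effect on RFC5 was higher by 0.58 ± 0.06 at 24 h than at 6 h (adjusted p = 7.2e-08), the largest difference among the members between these times on the count scale. The same difference on log2(TPM + 1) was 0.64 for RFC5 and 0.65 for E2F1. With all 24 libraries, 2 members became higher and 0 lower from 6 to 24 h, where 3.59% and 2.89% of all genes did so. From 24 to 48 h, 0 members became higher and 0 lower in that set, where 1.65% and 1.47% of all genes did so. On the TPM scale, 27 members became higher and 4 lower between 24 and 48 h, against 2 and 14 on the count scale. On that scale 44% of all genes became higher and 7.67% lower, and the median difference between the arms over all genes was -0.03 at 24 h and 0.17 at 48 h.

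In control cells the members themselves changed with culture time. Between 6 and 48 h, 13 were higher and 25 lower at 48 h, where 38.2% and 36.8% of all genes were, and in DMF cells 11 were higher and 25 lower, where 37.4% and 35.7% were. With all 24 libraries, 6 were higher and 15 lower in control cells, where 21.6% and 20.4% of all genes were, and 3 were higher and 17 lower in DMF cells, where 21.2% and 18.4% were. TK1 was 245 ± 20.5 CPM in control cells at 48 h, against 118 ± 2.6 CPM at 6 h (SD, n = 3 each), a log2 fold change of 1.05 ± 0.05 (adjusted p = 2.2e-16). MCM10 was 55.1 ± 3.14 CPM in control cells at 48 h, against 110 ± 3.22 CPM at 6 h, a log2 fold change of -0.99 ± 0.04 (adjusted p = 8.1e-17).

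Other genes of the same pathways were called in both directions. Their fold changes, p-values and counts rest on the 22 libraries alone, apart from the mitosis counts given with all 24. Of all genes tested, 23.4, 23.8, 27.9 and 30.9% were called lower and 23.8, 24.1, 29.5 and 33.6% higher at the 4 times. Of 29 other replication genes, 13, 14, 14 and 12 were lower and 7, 3, 10 and 10 higher at 6, 12, 24 and 48 h. DNA2, a nuclease of Okazaki fragment processing, had 36.7, 35.5 and 36.5 CPM in DMF and 65.3, 58.4 and 60.3 CPM in control libraries at 48 h, a log2 fold change of -0.77 ± 0.05 (adjusted p = 8.1e-13). CHTF8, of the same list, was higher at 48 h (0.53 ± 0.04, adjusted p = 1.3e-11). Of 28 other nucleotide synthesis genes, 9, 11, 17 and 15 were lower and 7, 4, 3 and 8 higher. At 48 h, DUT, which removes dUTP, had a log2 fold change of -0.89 ± 0.06 and IMPDH2, the rate-limiting enzyme of guanine nucleotide synthesis, had one of -0.84 ± 0.05, whereas SAMHD1, a dNTP hydrolase, was higher by 1.02 ± 0.06 (adjusted p = 7.1e-14). SAMHD1 had 37.6, 35.9 and 33.1 CPM in DMF and 17.5, 16.6 and 17.4 CPM in control libraries at 48 h, after 42.9, 44.1 and 43.9 CPM in DMF and 45.9, 46.5 and 50.7 CPM in control libraries at 24 h. Among 10 other S phase chromatin genes, HELLS and UHRF1 were lower at 12 h (-0.72 ± 0.05 and -0.48 ± 0.05) and the histone chaperone ASF1A was higher at 48 h (0.82 ± 0.07).

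Among 15 genes of the E2F, DP and pocket protein network, 7, 8, 7 and 6 were lower and 3, 3, 2 and 4 higher. RBL2, a pocket protein, was lower, with a log2 fold change of -0.76 ± 0.05 at 48 h, whereas E2F6 was higher at 6 h (0.65 ± 0.05). Among 19 G1/S cyclins, kinases and inhibitors, 3, 6, 6 and 8 were lower and 8, 3, 6 and 5 higher, which lay on both sides of the shares over all genes given above. The G1 cyclin CCND2 was lower at 48 h (-0.98 ± 0.04, adjusted p = 3e-16), whereas another G1 cyclin, CCND3, was higher at 48 h (0.85 ± 0.05, adjusted p = 6.3e-14). CDKN1A, which encodes the inhibitor p21, was higher at 24 h (53.4, 48.2 and 50.2 CPM in DMF and 28.1, 30.8 and 29.6 CPM in control libraries, log2 fold change 0.78 ± 0.05, adjusted p = 1.8e-12). Of 20 mitosis genes, 11 were higher and 3 lower at 6 h, 10 higher and 1 lower at 12 h, and 19 lower and none higher at both 24 and 48 h. BUB1B, a spindle checkpoint kinase, had 99.2, 99.9 and 98.5 CPM in DMF and 185, 185 and 187 CPM in control libraries at 24 h (log2 fold change -0.90 ± 0.04, adjusted p = 3.2e-16). With all 24 libraries, the mitosis counts were 3, 4, 0 and 0 higher and 0, 0, 5 and 10 lower. In that set 5.03, 7.37, 7.81 and 13.3% of all genes were called higher and 5.59, 9.95, 6.6 and 12.5% lower.

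**Figure D4:**
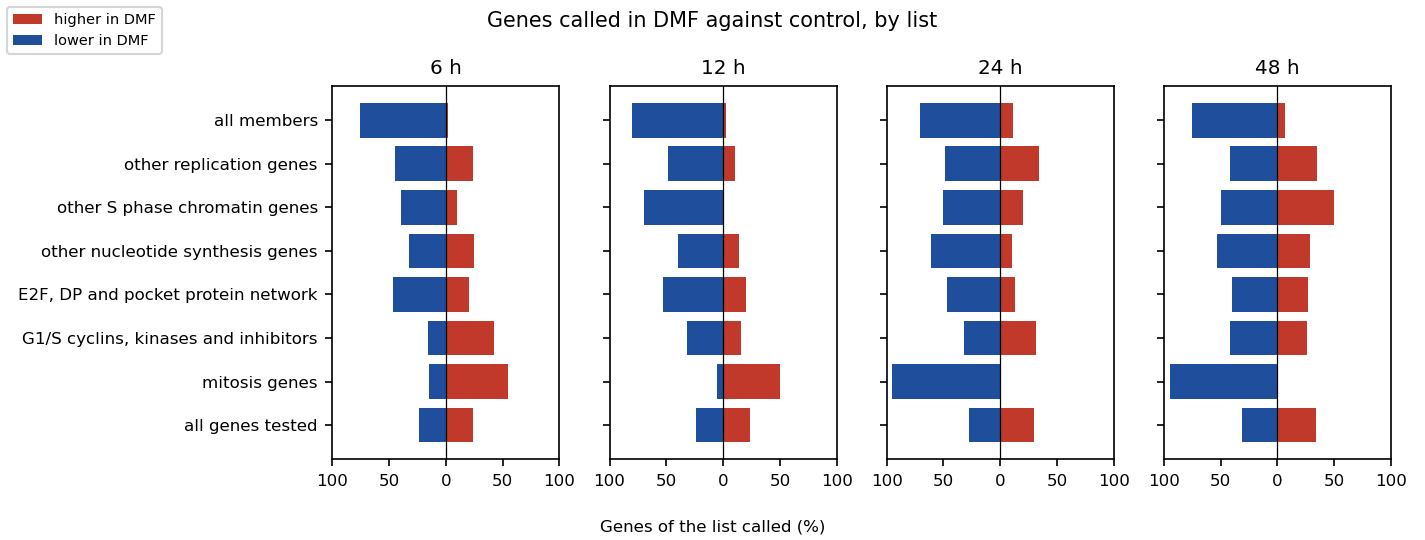
Percent of the genes of each list called higher (red, to the right) or lower (blue, to the left) in DMF over control cells at 6, 12, 24 and 48 h (x axis, percent; y axis, lists), with all genes tested in the last row. Replication and nucleotide supply members lie mostly to the left at every time, and mitosis genes change side between 12 and 24 h.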

How the data were processed

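RNA-seq of 24 libraries of HBL-1 cells was read from 1 gene table per library. The submitters' processing notes name HISAT, HISAT2 and RSEM and the build GRCh38.p12, with no versions, roles or strand setting, and the columns are those of an RSEM table. The authors deposited expected counts (estimated reads per gene, not all whole) and TPM (counts per effective length, scaled to 1 common total per library), per the file headers; deposited FPKM was not used. The members and gene lists were chosen with earlier results of these data known. By a rule, per-library values are given for the members that, in each role, had the smallest p or the largest or smallest mean fold change. The rule also took members called against the direction of most in their role, and the 3 with the smallest joint p. Named genes of the other lists were picked from those with the smallest p of their list at any time, so they do not stand for their lists. Values of the other members named were chosen after they were seen.

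Expected counts were rounded, filtered with filterByExpr and scaled by TMM, and group means were fitted with edgeR 4.0.16 (R 4.3.3) by its quasi-likelihood test over 13606 genes with Benjamini-Hochberg adjustment. CPM is the count after TMM scaling to a common library size. The 22 libraries were scaled together, and CPM of the replicate 3 libraries of 12 h came from a separate scaling of all 24. The fit used 22 libraries, without replicate 3 of 12 h in either arm, and left 14 residual degrees of freedom. Confidence intervals are at 95%. Alternatives were all 24 libraries, DESeq2 1.42.0, its size factors in edgeR, no filter, a replicate block, only the 2 groups compared, limma 3.58.1 on log2(TPM + 1), and leaving out each library in turn. The procedure was tested on simulated data. Same-numbered libraries were compared by the correlation of their deviations from the group means. In the 22 libraries 0 of 11 pairs exceeded 0.1, where the 2 pairs of 12 h hold the same comparison. For these 22 the numbers were not taken to pair the libraries. With all 24, 3 of 12 pairs exceeded 0.1, and the replicate 3 pair of 12 h had 0.896. Sequences are from RefSeq and gene coordinates from GENCODE v29 on GRCh38.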

Additional observations from a re-analysis of the deposited data

Results flagged for a closer look

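By a test of the interaction itself, the effect of DMF differed between times for a share of the members near that of all genes. The joint test over the 4 times was passed by 35 of the 45 members (77.8%), where 69.1% of all genes tested passed, and with all 24 libraries by 8 (17.8%), where 15% did. Between 6 and 24 h the effect was higher at 24 h for 9 members and lower for 11, where 22.5% and 21.9% of all genes passed. Between 24 and 48 h it was higher at 48 h for 2 and lower for 14, where 21.2% and 20% of all genes passed. All 24 libraries gave counts of 2 and 0 between 6 and 24 h, and 0 and 0 between 24 and 48 h. On log2(TPM + 1), 27 members were higher and 4 lower between 24 and 48 h, where 44% and 7.67% of all genes were. On the log2 scale the difference between 24 and 6 h was 0.35 for GINS4, 0.58 for RFC5, 0.42 for POLA2, 0.57 for E2F1 and 0.52 for E2F2, and it was -0.28 for ORC1 and -0.31 for LIG1. On log2(TPM + 1) these 7 differences were 0.43, 0.64, 0.43, 0.65, 0.49, -0.19 and -0.23. Between 48 and 24 h it was 0.24 for MCM10, -0.53 for E2F1, -0.38 for ORC1 and -0.39 for LIG1, against 0.5, -0.3, -0.09 and -0.09 on log2(TPM + 1). Groups held at most 3 libraries, so the gap test for a single value, which needs 4, was not run within groups.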

How the results depend on the processing

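With all 24 libraries fewer members were called: 8, 17, 8 and 17 lower at 6, 12, 24 and 48 h, none higher at 24 or 48 h (0 and 0), 8 in the joint test, 2 higher and 0 lower for 24 against 6 h, 0 and 0 for 48 against 24 h, 6 higher and 15 lower in control at 48 against 6 h, and 3 higher in DMF at 48 against 6 h. Of all genes, 675 were then higher and 750 lower at 6 h. The same counts were 989 and 1335 (12 h), 1048 and 885 (24 h), and 1785 and 1680 (48 h). In this set 85 of the 180 member values kept their side of the threshold, 94 lost a call and 0 reversed. On log2(TPM + 1), members called were 1 higher at 24 h, 10 higher and 21 lower at 48 h, 6 lower for 24 against 6 h, 27 higher and 4 lower for 48 against 24 h, and 22 higher in DMF at 48 against 6 h, and all genes called were 1393 higher and 4785 lower at 6 h, 1552 higher at 12 h and 2382 lower at 48 h. There 8 values reversed: TYMS at 6 h -0.12, POLA2 at 24 h -0.03, and at 48 h CDC6 0.06, ORC6 0.24, GINS1 0.03, RFC2 0.18, FEN1 0.18 and RRM2 0.06. The cause was not tested. Leaving out 1 library gave 27 to 35, 33 to 38, 29 to 33 and 33 to 35 members lower at 6, 12, 24 and 48 h, and 3 to 5 higher at 24 h, the lowest without control 24 h replicate 1. Without the shallow DMF 48 h replicate 1 library, 34 were lower and 3 higher at 48 h. DESeq2, its size factors, no filter and only the groups compared moved no count by over 1.5 times. The replicate block gave 34, 36, 32 and 35 members lower and changed 1 of 180 values, a gained call, and in all 24 libraries 3 of 12 same-numbered pairs correlated over 0.1.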
